A study of Mus musculus with 6 samples.

Results

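The transcripts of the normal distal midgut at E13.5 were described from the 3 Id2+/+ arrays alone, each hybridized with total RNA of the distal segment of the midgut of wild-type littermates from an Id2 knockout colony. Members are probes that carry 1 gene symbol, that were unflagged and that had a signal-to-noise value of at least 3 (called above background here) on all 3 arrays. These limits kept 7151 of the 14411 named probes (49.6%), out of 33012 probes in all, and the members stand for 6945 of 13837 named genes (50.2%). Members were thus chosen by measured values of the same arrays, so every level, rank and count here is a description without a test. The methods give 129/Sv and mixed 129/Sv and NMRI backgrounds for the mutant line, and nothing says which background these embryos had or whether a sample held a single embryo. The 3 Id2-/- arrays of the series were not used. Id2 itself has no named probe here and was not analysed.

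At this stage the midgut is a tube of endoderm inside a mesodermal wall. The inner epithelium comes from the endoderm and will form villi. The mesenchyme around it supplies fibroblasts, the layers of smooth muscle and the pacemaker cells called interstitial cells of Cajal, a mesothelium covers the outside, vessels grow in, and neural crest cells that migrate along the wall found the enteric nervous system. Whole tissue was measured, so fewer cells of a type and less RNA per cell cannot be told apart.

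Signals are given as log2 of the authors' median-normalized intensity, in which 0 is the median spot of an array. The limit on signal to noise was met by 15833, 14562 and 14501 probes on arrays 1, 2 and 3. Array 1 stood apart from the other two, also in the number of flagged spots (209, against 78 and 124). Across the 6945 member genes, which are not independent replicates, arrays 2 and 3 correlated at r = 0.991, whereas array 1 correlated with them at r = 0.895 and r = 0.902. Arrays 2 and 3 were at least 2-fold apart in 69 member genes (0.994%), arrays 1 and 2 in 1964 (28.3%) and arrays 1 and 3 in 1813 (26.1%). Values are therefore mostly given array by array, and the counts of wide ranges are also given without array 1. What sets array 1 apart was not tested.

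The median member gene had a log2 signal of 3.95, and the range from the 1st to the 99th percentile ran from 0.49 to 9.95. Signal was concentrated in few genes, since the 100 brightest held 32.9%, 33.4% and 32.5% of the summed member signal on arrays 1, 2 and 3. Probes differ in how strongly they respond to the same amount of RNA, so the order is one of signals and not of transcript numbers. Among the 186 genes with exactly 2 member probes, the levels of both probes correlated at r = 0.38, and 53 of these genes had levels within 2-fold of each other. The 100 brightest genes of arrays 1, 2 and 3 taken singly shared 88, 94 and 94 genes with the 100 brightest by the mean. Over all member genes, the order of array 1 correlated with those of arrays 2 and 3 at a Spearman's rho of 0.88 and 0.89, and arrays 2 and 3 at 0.99.

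The top of the ranking was held by the machinery of protein synthesis. Cytosolic ribosomal proteins, the protein parts of the ribosome, made up 45 of the 100 brightest genes, against 0.763% of all member genes. Of their 55 named genes 53 were members, against 50.2% of all named genes, and their median rank was 44 with a median log2 signal of 10.42. The group was drawn up by gene symbol, and Rps3a1, a ribosomal protein gene at rank 39, fell outside it and is not counted. Rpl32 was first of all, with log2 signals of 10.95, 11.92 and 11.81 on arrays 1, 2 and 3. Rps12 followed with 11.24, 11.61 and 11.38, and Rpl26 with 10.94, 11.55 and 11.60. In these genes array 1 was the lowest, yet it stayed within about 2-fold of the others. Rpl39, Rpl31, Rps27, Rps24, Rps23, Rplp1, Rpl41, Rpl19, Rpl12, Rpl7, Rpl11, Rpl13a, Rpl10, Rpl5, Rpl38 and Rpl6 completed the ribosomal genes among the 30 brightest, with mean signals between 10.68 and 11.35. Rpl13a was the exception in direction, at 11.81 on array 1 against 10.13 and 10.43 on arrays 2 and 3. The median range of the ribosomal group over the arrays was 0.43, against 0.73 for all member genes. Translation factors were also bright, with 25 of 26 named genes as members (96.2%, against 50.2% of all named genes) and a median rank of 427. Eef1a1, the elongation factor that brings aminoacyl-tRNA to the ribosome, was at rank 7 with 11.11, 11.35 and 11.25.

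Messenger RNAs of ribosomal proteins are known to start with an unbroken run of pyrimidines, through which their translation is controlled. The 6 letters CTTTCC were searched on the coding strand within 20 bases of the start in the RefSeq promoters of mouse build GRCm38.p6, which cover 5675 of the member genes. They were found in 7 of 43 ribosomal member genes (16.3%), in 95 member genes (1.67%) and in 1.90% of all 27025 promoters of the table. A match describes letters in a window and shows neither where an mRNA begins nor control of the gene. The other 36 of the 43 hold no match in this window. In order to show matches at or just behind the annotated start, 4 of the 7 follow as the 40 bases before the start and the 20 from the start on, with CTTTCC in capitals. Rps27 lies on the minus strand at chr3:90213629-90213688, Rpl38 on the plus strand at chr11:114668540-114668599, Rpl28 on the plus strand at chr7:4792925-4792984 and Rps10 on the minus strand at chr17:27635225-27635284.
Rps27: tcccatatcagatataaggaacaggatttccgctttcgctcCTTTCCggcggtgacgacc
Rpl38: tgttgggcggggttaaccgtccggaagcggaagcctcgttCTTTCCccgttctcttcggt
Rpl28: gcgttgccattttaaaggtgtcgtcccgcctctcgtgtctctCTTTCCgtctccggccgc
Rps10: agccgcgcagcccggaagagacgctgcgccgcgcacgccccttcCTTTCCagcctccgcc
In Rpl38 the letters begin at the start itself, in Rps27 1 base, in Rpl28 2 bases and in Rps10 4 bases behind it. The start used for Rpl38, at 114668580, lies inside the gene, whose annotated first base is 114667818. Of the 3 matches not printed, Rpl13a has it 9 bases behind the start, and in Rpl35 and Rpl4 it begins before the start, at -5 and -17.

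Outside translation, the cytoskeleton list held the most of the 100 brightest genes. Cytoskeletal genes had a median rank of 155, with 21 of 22 named genes as members (95.5%, against 50.2% of all named genes). They held 7 of the first 100 places, against 0.302% of all member genes. Among these were the actin-binding peptide Tmsb10 (rank 20), alpha-tubulin Tuba1a (rank 22) and gamma-actin Actg1 (rank 26). Among the first 30 were also H3f3a, which encodes histone H3.3, with 10.70, 11.48 and 11.42, and the nucleosome-binding Hmgn2 with 10.51, 11.20 and 11.29. Ube2c, the ubiquitin-conjugating enzyme of the anaphase-promoting complex, stood at rank 5 with 10.67, 11.75 and 11.48, 1.08 on the log2 scale from lowest to highest. The prolyl isomerase Ppia (rank 9), the methionine synthase reductase Mtrr (rank 19) and the F-box protein Fbxo22 (rank 23) were also among the first 30. The remaining gene of the first 30, the collagen gene Col3a1 (rank 10), is described below with the mesenchyme. In all, 66 of the 100 brightest belonged to a list used here and 34, Rps3a1 among them, to none.

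Transcripts of cell division were well represented. Of 37 named cell cycle genes, 31 were members (83.8%, against 50.2% of all named genes), with a median rank of 1176. The replication clamp Pcna was at 8.39, 9.82 and 9.84 and the cyclin gene Ccna2 at 6.09, 5.97 and 6.16. Cdkn1c, an imprinted inhibitor of cyclin-dependent kinases, was among the brightest of the list too, at 9.53, 10.56 and 10.16. Cdk1 was not above background on any array. The letters CCAAT, searched on either strand over the 300 bases of the promoter, were present in 16 of 23 cell cycle members (69.6%), 40.1% of all member genes and 37.9% of all promoters. Genes of the list of imprinted growth genes were members in 12 of 15 cases with a median rank of 1080.5, led by Gnas (rank 48), Cdkn1c (rank 62) and Dcn (rank 101). Dcn is on the gut mesenchyme list too. Of the supply of energy, 63 of 68 named respiratory chain genes (median rank 533) and 11 of 16 glycolytic genes (median rank 1396) were members, with Gapdh at rank 51 and Ldha at rank 123. Of the proteasome, which degrades proteins, 31 of 33 named genes were members (median rank 959).

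Genes of the layers of the gut wall were then read from 11 lists. Of the 284 genes with a named probe in these lists, 171 were members, against 34 of 165 in 8 lists for neighboring or distant tissues. For comparison, 50.2% of all named genes were members. The share of members among the named genes of a list ran from 36.0% (erythroid cells) to 80.0% (interstitial cells of Cajal) in the gut layers, and from 4.76% (central nervous system) to 36.7% (striated muscle) in the other tissues. Of the defining markers with a named probe, 30 of 36 were members for the gut layers and 4 of 24 for the other tissues. The median signal of a list over all its unflagged named genes, detected or not, exceeded that of all named genes (1.18) in 8 of the 11 layer lists, with erythroid cells (0.24), macrophages (0.61) and enteroendocrine cells (0.76) below it. The lists were drawn up with earlier results of these arrays known, so these shares describe the lists and are no independent support for them.

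Transcription factors and structural genes of intestinal epithelium were present. Of 35 named genes of intestinal epithelium, 22 were members (62.9%), with a median rank of 3323 and the first at rank 671. Cdx2, the homeobox factor that specifies intestine, had log2 signals of 5.55, 6.80 and 7.05 on arrays 1, 2 and 3. The microvillus protein gene Vil1 had 3.87, 6.11 and 6.58, and Cdh17, liver-intestine cadherin, 3.73, 4.72 and 5.32. Array 1 was the lowest for each of these defining markers. Klf5, a factor of proliferating epithelium, was the brightest of the list at 4.72, 7.76 and 8.05, followed by the tight junction gene Cldn7 at 5.94, 6.86 and 7.38 and by Cdx2. Genes of absorptive cells were members, with the fatty acid binding protein Fabp2 at 3.77, 5.59 and 5.88 and Fabp1 at 2.51, 3.56 and 4.13. The stem cell receptor Lgr5 had 1.03, 3.70 and 3.81. Cdx1, Foxa2, Apoc3 and Ascl2 were not above background on any array, and Shh, Ihh, Foxa1, Gata4, Gata5, Hnf4g, Sox9, Guca2a and Guca2b on 1 or 2. Hnf4a and Muc2, which have no named probe here, were not analysed.

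Genes common to epithelia were brighter. The pan-epithelial list had 19 of 26 named genes as members with a median rank of 2275. Epcam, the epithelial adhesion molecule, stood at rank 231 with 7.06, 8.79 and 8.89. E-cadherin (Cdh1) had 4.66, 7.08 and 7.22, and the keratins of simple epithelia Krt8 and Krt18 had means of 7.27 ± 0.54 and 5.50 ± 0.45 (SD, n = 3). The protease inhibitor Spint2 was the third brightest member of the list at 6.24, 6.82 and 7.15. Array 1 was again the lowest for each of these 5 genes, by the widest margin for Cdh1.

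A TATA box, which places the transcription start in many strongly or tissue-specifically expressed genes, is rare in promoters of broadly expressed genes. The letters TATAAA between 40 and 15 bases before the start on the coding strand were present in 73 of the 5675 member genes with a promoter (1.29%) and in 2.22% of all promoters of the table. They were found in 3 of 16 members of the intestinal epithelium list (18.8%; Foxa3, Fabp1 and Krt20), in 5 of 83 of the 100 brightest genes (6.02%; Ppia, Rpl22l1, Vim, Zfp36l1 and H2ac22) and in 0 of 43 ribosomal genes. With so few matches these shares are given as a description. The 60 bases before and the 10 from the start on are printed for a pair of epithelial genes, a mesenchymal gene and an embryonic globin, to show genes of separate layers that share these letters, in capitals. Fabp1 lies at chr6:71199819-71199888 (plus strand), Krt20 at chr11:99438144-99438213 (minus strand), Vim at chr2:13574251-13574320 (plus strand) and Hba-x at chr11:32276540-32276609 (plus strand) of GRCm38.p6.
Fabp1: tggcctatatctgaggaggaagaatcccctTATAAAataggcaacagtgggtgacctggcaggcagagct
Krt20: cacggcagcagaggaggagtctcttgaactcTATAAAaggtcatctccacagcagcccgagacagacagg
Vim: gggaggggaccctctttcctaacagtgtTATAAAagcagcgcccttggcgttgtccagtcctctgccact
Hba-x: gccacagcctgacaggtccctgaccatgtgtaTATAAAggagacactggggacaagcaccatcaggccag
The first T of the capitals lies 30 bases before the start in Fabp1, 29 in Krt20, 32 in Vim and 28 in Hba-x.

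The mesenchyme gave the brightest signals of any layer. Of 44 named genes, 30 were members (68.2%), with a median rank of 1119.5, and 13 of them were in the first 500. Fibrillar collagens led, with Col3a1 at rank 10 (10.55, 11.48 and 11.41 on arrays 1, 2 and 3), Col1a2 at rank 41 (mean 10.51 ± 1.23, SD, n = 3) and Col1a1 at 7.85, 8.72 and 8.69. Col1a2 was low on array 1 at 9.09. Vim, the intermediate filament of mesenchymal cells, had 9.35, 10.06 and 10.01, and Sparc, a matrix glycoprotein, 8.97, 9.88 and 9.72. Transcription factors of visceral mesoderm were spread over the ranking, with Tcf21 at rank 149, Foxf2 at rank 881, Hlx at rank 1272 and Nkx2-3, a defining marker, at rank 4048 with 4.31, 2.92 and 3.26. The growth factor receptor Pdgfra had 2.61, 2.76 and 2.80. Foxf1, the other defining factor, was above background on array 1 alone, with 6.25 there and 3.43 and 3.04 on arrays 2 and 3, and so is no member in spite of its signal. Prrx1, Foxl1, Six2, Ptch1, Gli3, Fgf10, Gdnf and Kitl were not above background on any array.

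Contractile genes of smooth muscle were present. Of 22 named genes, 16 were members (72.7%), with a median rank of 1554. Enteric actin (Actg2) was at 8.10, 9.31 and 9.63, transgelin (Tagln) at 7.56, 8.35 and 8.75 and smooth muscle myosin heavy chain (Myh11) at 5.92, 7.05 and 7.70. Vascular alpha-actin (Acta2) had 3.84, 5.96 and 6.18. All 4 defining markers were lowest on array 1 and highest on array 3. Myl6, a myosin light chain also found outside muscle, was the brightest of the list at rank 42, followed by Actg2 (rank 136) and Tpm2 (rank 176). Tpm1 went the other way, at 7.48 on array 1 against 4.67 and 4.89, and so did Cald1, at 3.63 against 2.92 and 2.96. The calponin gene Cnn1 (0.56, 0.37 and 0.20) and desmin (Des; 3.99, -0.25 and 1.91) were above background on 2 arrays each and highest on array 1. Vcl and Itga8, above background on 1 array each, were highest there too.

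Genes of neural crest cells and neurons were present too. Of 35 named genes of the enteric neural list, 23 were members (65.7%) with a median rank of 2254. Stmn2, a microtubule regulator of growing axons, was at 7.58, 8.56 and 8.47, neuronal tubulin Tubb3 at 7.55, 7.34 and 7.65, and the RNA-binding protein gene Elavl4 at 6.61, 7.77 and 8.10. These 3 were the brightest of the list, at ranks 238, 411 and 419. Ret, the receptor that guides the crest cells, was dim and variable at 2.59, 0.66 and -0.53. Genes of transmitters and of their synthesis were present in part, with the peptide genes Vip at 2.87, 4.63 and 5.09 and Gal at 4.81, 4.12 and 4.25. Npy, Nos1 and Chat were above background on 1 array each and Tac1 on none. Sox10 has no named probe here and was not analysed. Of the 5 genes of interstitial cells of Cajal, 4 were members. Kit, their receptor for stem cell factor, had 4.71, 4.92 and 4.62, the chloride channel gene Ano1 4.70, 5.91 and 5.82, the factor Etv1 4.79, 6.39 and 6.38, and Lrig1 4.43, 4.17 and 4.89.

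Mesothelial genes, by their median, varied in the opposite direction to epithelial ones. Of 15 named genes, 11 were members (73.3%) with a median rank of 2505. Upk3b, a uroplakin of the mesothelial surface, had 6.59, 4.69 and 4.24 on arrays 1, 2 and 3, and the factor Wt1 4.65, 3.94 and 3.36. Both were highest on array 1 and lowest on array 3. The retinoic acid synthesis gene Aldh1a2 had 5.73, 4.33 and 4.06. Aldh1a1, with 8.08, 9.41 and 9.23, was the brightest of the list and was lowest on array 1, followed by Rspo1 (rank 1032) and Slc9a3r1 (rank 1236). Msln and Lrrn4, the other defining markers, were above background on 2 arrays. Lrrn4 (2.26, 0.24 and -1.20) was highest on array 1, whereas Msln (-1.73, -0.10 and 0.50) was lowest there.

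Vessels and blood cells gave mixed signals. Endothelial genes were members in 18 of 31 cases (58.1%, against 50.2% of all named genes) and were dim, with a median rank of 4258.5. The VEGF receptor Kdr had 4.43, 6.32 and 6.29 and Pecam1 2.38, 1.64 and 2.27, whereas Cdh5 was above background on 1 array and Tie1 on none. Sox7 (rank 2089) and the lymphatic and macrophage receptor gene Lyve1 (rank 3580) were the next brightest after Kdr. Of 25 named erythroid genes 9 were members (36.0%), yet the globins were bright. Hba-a1 was at rank 84 with 9.32, 9.94 and 9.90, the embryonic zeta-globin Hba-x at 7.52, 8.79 and 8.15, and the embryonic beta-like globins Hbb-y and Hbb-bh1 at 8.37, 8.21 and 7.53 and at 6.26, 5.48 and 4.61. The heme synthesis gene Alas2 had 2.91, 4.40 and 4.27. Genes of the red cell precursors such as Gata1, Klf1, Tfrc and Slc4a1 were not above background on any array.

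Macrophage genes were few and dim. Of 24 named, 10 were members (41.7%), a share under the 50.2% of all named genes, with a median rank of 4216.5 and the first at rank 2253. Adgre1, which encodes F4/80, had 4.54, 5.03 and 5.22, Pf4 4.73, 4.50 and 4.76, and lysozyme Lyz2 4.07, 4.30 and 4.51. The complement gene C1qb had 3.13, 1.91 and 2.30. Csf1r and Cx3cr1 were not analysed here. Of the 24 named enteroendocrine genes, 11 were members (45.8%). Neurog3, the factor that starts the endocrine lineage, had 1.84, 2.41 and 2.54 and chromogranin A (Chga) 3.10, 2.96 and 3.54, while Neurod1 was not above background on any array. The carboxypeptidase gene Cpe (rank 264), the proprotein convertase inhibitor Pcsk1n (rank 2008) and Scg5 (rank 2617) were the brightest of the list and are known from neurons too. Among hormones, Cck and Sct were members, while Gip, Nts and Insl5 were not above background on any array.

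Markers of other tissues were mostly not above background on all 3 arrays. The defining markers that were not above background on any array were Pdx1 and Ptf1a of the pancreas, Atp4b of the stomach, Hoxa13 of the hindgut, Myog, Myod1 and Ckm of striated muscle, Col9a1 and Matn1 of cartilage, Neurod6 of the brain and Lhx1 of the kidney. Cpa1, Cel, Gkn1, Acta1, Acan, Olig2, Pou3f2, Pax8 and the albumin gene Alb were above background on 1 or 2 arrays. The 4 exceptions were Ttr (5.27, 6.31 and 6.50), Afp (3.53, 5.30 and 5.03), Sox2 (3.36, 2.95 and 2.82) and Col2a1 (0.90, 2.75 and 3.01). Transthyretin (Ttr) and alpha-fetoprotein (Afp) are plasma proteins known from liver and from other embryonic endoderm, Sox2 is a factor of foregut endoderm and neural cells, and Col2a1 is the collagen of cartilage. Ttr, Afp and Col2a1 were lowest on array 1 and Sox2 was highest there. The counts of members were 4 of 25 named genes for pancreas, 7 of 28 for liver, 2 of 21 for stomach epithelium (Sox2 and the mesenchymal factor Barx1) and 1 of 9 for hindgut. They were 11 of 30 for striated muscle, 2 of 14 for cartilage, 1 of 21 for the central nervous system and 6 of 18 for kidney and gonad. Each of these shares lay under the 50.2% of all named genes.

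Of these lists for other tissues, pancreas had as its brightest members Nr5a2 (1.71, 3.23 and 3.55), a nuclear receptor of gut endoderm too, with Bhlha15 and Rbpjl at means of 0.81 and 0.74. For liver they were Ttr, Afp and the retinol carrier Rbp4 (mean 4.46 ± 0.17, SD, n = 3). Striated muscle was led by cardiac actin Actc1 (4.28, 6.39 and 6.70), the troponin Tnni2 (5.45, 5.94 and 5.92) and the calcium store protein gene Casq2 (4.37, 4.81 and 4.54). Barx1, a factor of stomach mesenchyme, had a mean of 1.45, Wnt11 0.23, Col11a1 2.72 and the homeobox gene Dlx1 4.41. Of the kidney and gonad list, Osr1 (rank 3107), the germ cell gene Ddx4 (rank 3614) and the inhibin gene Inha (rank 5612) had means of 4.20, 3.85 and 2.19. Nr5a2, Actc1 and Tnni2 were lowest on array 1, whereas Osr1 was highest there at 4.52.

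Hox genes, which mark position along the body axis, gave a profile that stopped before the posterior groups. Of the 30 Hox genes with an unflagged named probe, 14 were members: 9 of 12 in paralog groups 1 to 5, 5 of 10 in groups 6 to 9 and 0 of 8 in groups 10 to 13. The total and the count in groups 6 to 9 lie near the 50.2% of all named genes. Hoxa5 was the brightest with 6.42, 7.13 and 7.26, followed by Hoxb6 with 6.39, 6.54 and 6.57 and Hoxb4 with 6.01, 6.39 and 6.28. Hoxb2 (mean 6.08), Hoxb5 (5.45), Hoxa2 (5.09) and Hoxa7 (4.33) came next. Genes of the Hoxc cluster were dimmer, with Hoxc8 at 4.67, 3.44 and 3.12, Hoxc6 at 4.08, 2.62 and 2.52, Hoxc4 at 2.98, 1.36 and 1.49 and Hoxc9 at 2.08, 2.81 and 2.35. The first 3 of these were highest on array 1, and Hoxc9 was lowest there. Hoxd3, the sole member of its cluster, had 3.30, 1.43 and 1.84, and Hoxb3 and Hoxa3 had means of 1.96 and 1.57. The highest mean in groups 10 to 13 was -0.45, below the median spot.

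Genes of signaling between the layers were members in part. In the hedgehog pathway, by which epithelium patterns the wall, 3 of 11 named genes were members (27.3%, against 50.2% of all named genes). The epithelial ligand Shh was above background on 2 arrays (2.76, 1.12 and 1.25), Ihh and Dhh on 1 each, and the receptor and target Ptch1 on none. Gli1, a target of the pathway in mesenchyme, was at 4.80, 5.03 and 5.12, the co-receptor Gas1 at 9.01, 9.49 and 9.44 and the co-receptor Boc at 3.57, 1.78 and 2.04. Cdon and Gli3 were on no array above background, and Sufu and Disp1 on 1.

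In the BMP pathway 9 of 15 named genes were members, which lies near the 50.2% of all named genes. Bmp4 was the sole ligand among them at 5.38, 4.69 and 4.96, with Bmp5 and Bmp7 on 2 arrays and Bmp2 on none. Of the inhibitors, Bambi had 5.59, 6.35 and 6.16, Chrd 3.61, 4.19 and 4.23, Grem1 1.80, 4.40 and 4.38 and Nog 0.89, 0.65 and 0.54. Grem1 was more than 2-fold lower on array 1 than on the others. The receptor Bmpr2 had 0.79, 1.45 and 1.49 and the receptor Acvr1 1.98, 0.82 and 0.89. The target Id1 had 5.73, 4.66 and 4.87 and the effector Smad5 a mean of 2.18. Acvr1 and Id1 were highest on array 1, whereas Bmpr2 was lowest there. Bmpr1a and Smad1 were above background on 1 array and Bmpr1b on none.

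Of the PDGF genes, the ligands Pdgfa (5.89, 7.11 and 7.26) and Pdgfc (5.86, 6.63 and 6.39) and the receptor Pdgfra were members, with Pdgfrb on 2 arrays, Pdgfd on 1 and Pdgfb on none. For the enteric neural crest, the GDNF family ligands Nrtn and Artn had means of 4.88 and 2.70, endothelin 3 (Edn3) had 4.02, 2.57 and 2.30, its receptor Ednrb 3.99, 3.72 and 3.98, and the processing enzyme Ece1 4.04, 4.70 and 4.73. Gdnf itself was not above background on any array, nor was Kitl, the ligand of Kit, and Gfra2 was on 1. Edn3 was highest on array 1, as Ret was.

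Of the FGF genes, no ligand was a member. Fgf15 was above background on 1 array and Fgf7 and Fgf10 on none. The receptors Fgfr2 (3.66, 2.98 and 3.14) and Fgfr4 (1.25, 2.82 and 2.66) were members, Fgfr1 was above background on 1 array and Fgfr3 on none. The feedback inhibitors Spry1 and Spry4 had means of 5.70 and 1.92, Spry2 had 4.47, 5.96 and 6.03, and the target Dusp6 had a mean of 4.37. Among VEGF and angiopoietin genes, Vegfb (5.63, 5.58 and 5.71) and Vegfc (2.03, 2.72 and 3.29) were the ligands above background, Vegfa and Angpt1 were on 2 arrays and Angpt2 on none. Kdr, Tek (mean 0.98) and Nrp2 (mean 1.91) were the receptors among the members, with Nrp1 on 1 array and Flt4 on none. Insulin-like growth factor binding proteins stood out for their spread, with Igfbp4 at 5.09, 1.56 and 1.84, Igfbp2 at 7.72, 6.01 and 6.09 and Igfbp3 at 2.99, 1.76 and 1.27, each highest on array 1, while Igfbp5 was above background on 1 array. The receptors Igf1r (6.07, 7.19 and 7.12) and Igf2r (4.71, 4.98 and 5.20) were lowest there.

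The spread between the 3 wild-type samples was read for each member as its range, the highest minus the lowest array on the log2 scale. The median range was 0.73, or 1.66-fold. A range of at least 2-fold was present in 2259 member genes (32.5%), and among these array 1 was the lowest in 1294 (57.3%) and the highest in 938 (41.5%). Without array 1 the members are 7188 genes, and 89 of them had such a range. Against 32.5% of all members, the share with a 2-fold range was 81.8% for intestinal epithelium (18 of 22), 62.5% for smooth muscle (10 of 16), 54.5% for mesothelium (6 of 11), 47.4% for the pan-epithelial list (9 of 19) and 33.3% for gut mesenchyme (10 of 30). It was 44.4% for erythroid cells (4 of 9), 36.4% for enteroendocrine cells (4 of 11) and 34.8% for the enteric neural list (8 of 23), and such a range was present in 9 of 18 endothelial genes, 2 of 4 genes of interstitial cells of Cajal and 3 of 10 macrophage genes. Macrophages were the one layer list below the share of all members. Without array 1, 1 of 23 enteric neural members (Ret) and 1 of 11 enteroendocrine members (the secretin gene Sct) had such a range, and 0 members of the other layer lists did, against 1.24% of all members.

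The layers differed in how far they moved from array to array. The deviation of a gene on an array is its log2 signal minus its mean over the 3 arrays, and its median over all members was -0.17, 0.05 and 0.11 on arrays 1, 2 and 3. For intestinal epithelium it was -0.94, 0.37 and 0.70, so that the median gene on array 1 was at 0.520 times its 3-array mean, and 21 of 22 members were lowest on array 1, against 3951 of all 6945 member genes (56.9%). This count covers members alone, which had to be above background on all 3 arrays. Of the genes of this list above background on 1 or 2 arrays, Shh, Ihh, Foxa1, Gata4 and Sox9 were highest on array 1. Gata5, Guca2a, Guca2b and Hnf4g of the same list were highest on another array. Array 1 had the lowest median in 10 of the 11 layer lists, mesothelium being the exception. The pan-epithelial list had -0.60, 0.14 and 0.41 and smooth muscle -0.64, 0.11 and 0.53. Mesothelium had 0.30, -0.04 and -0.35, with 7 of 11 members highest on array 1. Mesenchyme lay between, at -0.34, 0.20 and 0.20, and the enteric neural list was near the median of all members on array 1 at -0.17. After quantile normalization, which moved the median of all members on array 1 to -0.04, intestinal epithelium was at -0.83 and mesothelium at 0.59 on that array. Lgals4, an intestinal galectin with 2 member probes, was lowest on array 1 by both, at 3.93, 6.82 and 7.33 and at 4.71, 6.18 and 7.10. Over the 186 genes with 2 member probes the deviations of the probes on array 1 correlated at r = 0.08, and at r = 0.49 over the 53 whose levels lay within 2-fold.

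Genes with the widest ranges fell into both directions. Oaz2, an inhibitor of polyamine synthesis, had 5.65 on array 1 against 0.94 and 1.13 on arrays 2 and 3, the widest of all at 4.71. Of the 10 genes with the widest ranges, 2 (Fos and Egr1) were at least 2-fold apart on arrays 2 and 3. Smoc2 (4.86, 0.39 and 0.89), the RNA-binding protein gene Pcbp1 (6.72, 2.35 and 3.06), the GTPase gene Rhoc (5.40, 1.32 and 1.60), the ribosome assembly factor Nop53 (6.18, 2.16 and 2.29) and the mitochondrial import pore Tomm40 (5.17, 1.17 and 2.02) were likewise high on array 1. Trim31 (0.49, 3.84 and 4.50), Tmem30b (1.02, 4.59 and 4.95), Fos (1.05, 3.83 and 4.98) and Egr1 (0.93, 3.41 and 4.81) were low there. The 5 genes highest above their mean on array 1 were Oaz2, Smoc2, Pcbp1, Nop53 and Rhoc. On array 2 they were Slc25a31 (0.07, 3.01 and 1.26), Lingo1 (1.15, 3.26 and 1.10), Pde5a, Cfi and Hdac10, and on array 3 Egr1, Fos, Trim31, Crhr1 and the chemokine gene Ccl11. Lingo1 was apart on array 2 alone, and Slc25a31 was also more than 2-fold lower on array 1 than on array 3, whereas Pde5a, Cfi, Hdac10, Crhr1 and Ccl11 were low on array 1.

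Immediate early genes, which are transcribed within minutes of a stimulus, were lowest on array 1 in 16 of 19 members, against 56.9% of all members, with median deviations of -0.51, 0.18 and 0.35. Jun, the brightest of them, had 5.99, 7.08 and 6.89, and Atf3 had 1.60, 2.95 and 3.39. Ccn1 went the other way at 3.68, 2.42 and 2.88. Egr2, Egr3 and Fosl1 were not above background on any array. Their part in the differences between arrays was not tested.

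The steadiest among the 500 brightest genes were H3f3b, the second gene for histone H3.3, with a mean of 8.02 ± 0.02 (SD, n = 3), the phosphatase subunit gene Ppp2ca at 8.46, 8.42 and 8.43, the translocon subunit gene Sec61g at 8.97, 9.01 and 9.02, Coa3 at 7.31, 7.29 and 7.34, and the histone gene H2ac22 at 9.79, 9.79 and 9.74. Among these 5 genes array 1 had no constant place. Of the Y-linked genes, Eif2s3y was a member with 4.49, 5.93 and 4.58, Uty was above background on 2 arrays and Kdm5d on none; the labels give no sex.

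The members with the lowest signal-to-noise value on any array were probes for Lnx2 (1.37, 1.37 and 0.47), Setbp1 (2.40, 1.25 and 1.35) and Stab2 (0.54, 1.93 and 0.29), at the limit itself. Just outside, at 2.99, were probes for Tnip2 (1.95, 2.82 and 2.44), Snph (0.31, 0.42 and -0.17) and Rybp (1.70, 2.07 and 1.74). The signals on both sides overlapped.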

How the data were processed

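Total RNA of the distal midgut was amplified for 1 round, labeled with digoxigenin and hybridized to the mouse genome survey array of Applied Biosystems, a single-color platform, 1 sample to an array. The deposited files hold the authors' intensity per probe, divided by them by the median intensity of the unflagged spots of each array (980.4, 754.9 and 790 for arrays 1, 2 and 3), with a signal-to-noise score and a flag from the scanner software as deposited. Background subtraction is not described. The methods name a flag under 5000 as a false spot; here a flag under 5000 marks a good one. The series table that was deposited beside the array files has identical values (largest difference 0).

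Log2 was taken of the authors' normalized intensity, with no offset. Probes were named through the platform annotation, brought up to date by gene ID (14402 probes), accession (5) or not at all (4) from the RefSeq table of GRCm38.p6; 247 probes with several symbols and 18354 with none were left out. A gene with several member probes is represented by the brightest. A gene with no member probe is represented by the unflagged probe above background on the most arrays, the brighter one on a tie. The median signal of a list over all its named genes uses the brightest unflagged probe of each gene. Python 3.11.15, pandas 2.3.3 and numpy 2.4.6 were used, and the steps were tested on simulated data. No test was run, since the limits that chose the members use the same arrays and there is 1 group of 3. The number of arrays limits the precision.

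Members and lists were chosen with earlier results of these data known. The text names the 30 brightest genes; the defining markers and 3 brightest members of each layer and other-tissue list; the pathway genes; the Hox members; the 10 widest ranges, the 5 genes highest above their mean on each array and the 5 steadiest of the 500 brightest; 3 probes on each side of the limit; and the Y-linked genes. Other genes were named from the lists after their values were seen.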

Additional observations from a re-analysis of the deposited data

Results flagged for a closer look

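Of the 18601 probes without a single gene symbol, which enter no list or rank, 4817 met the same limits on all 3 arrays. Of these, 2034 were brighter than the median member probe, and the highest had a mean log2 signal of 11.61, so the ranking of named genes leaves out bright probes. In groups of 3 arrays, outlying arrays were not looked for gene by gene.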

How the results depend on the processing

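With signal-to-noise limits of 5 and 10, or the limit met on at least 2 of 3 arrays, the members were 6187, 5063 and 7959 genes and the layer lists held 162, 142 and 194 of them. Endothelium fell from 18 members to 10 at the limit of 10. Leaving out 1 array gave 7400 to 7599 member probes, 7188 to 7377 genes, 174 to 181 layer genes and 95 to 98 of the 100 brightest. The number of members with a range of at least 2-fold rested on array 1: leaving out 1 array gave 89 to 2093, with 89 without array 1. It was 1408 at a limit of 10, where fewer genes enter, and 2018 after quantile normalization. Array 1 was the lowest in 10 of the 11 layer lists and in 8 after quantile normalization, with intestinal epithelium at -0.83 and mesothelium at 0.59. With the mean of a gene's member probes in place of the brightest, 88 of the 100 brightest were kept. An offset of 0.5 and the values of the deposited series table moved none of these values past the spread between arrays. No paired analysis was possible because a single group was described and no test was run. Signals near background limit what can be said of dim genes: a gene not above background may still be transcribed.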
